A study of Mus musculus with 4 samples.

Results

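The genes described here encode the enzymes and G protein subunits that make, destroy and read cyclic AMP (cAMP) and cyclic GMP (cGMP). They were chosen by symbol: phosphodiesterases (Pde followed by a number and a letter from a to d), adenylyl cyclases (Adcy), alpha subunits of heterotrimeric G proteins (Gna, without Gnas) and the regulatory (Prkar) and catalytic (Prkac) subunits of protein kinase A (PKA). The rule took 52 of the 18193 genes measured. These were 21 phosphodiesterase genes, 10 adenylyl cyclases, 14 G alpha subunits, 6 PKA subunits and Gnasas1, an antisense RNA of the Gnas locus whose symbol also fits. Gnat3 and Pde4c, which also fit the rule, were not analysed here. The group was picked from the measured values, because Pde2a, Pde1b and Gnai1 stood among the genes that differed most between N-myc high and N-myc low cells in these same arrays. All differences between those fractions are therefore given as a description. Members were fitted only together with all genes, and their p values are not read as a test of the group.

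Haematopoietic stem cells (HSCs) came from the bone marrow of transgenic mice that carry a fusion of N-myc to the red fluorescent protein mCherry. All samples were sorted as Lin-Sca+Kit+CD48-CD150+ cells, were neither cultured nor treated, and were split by mCherry into N-myc high HSCs and N-myc low HSCs. Each fraction was measured on 2 arrays, labelled mouse 1 and mouse 2, so both groups carry the fusion gene and differ in its signal. The age of the mice, the number of animals behind a sample and the regulatory sequence that drives the fusion were not stated in the labels.

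A hormone or chemokine that binds a G protein-coupled receptor loads the alpha subunit of its G protein with GTP. Alpha subunits of the s class stimulate adenylyl cyclases to make cAMP, those of the i class inhibit them, and those of the q class act through phospholipase C. PKA is an assembly of regulatory subunits that hold catalytic subunits inactive until cAMP binds, and phosphodiesterases end the signal by hydrolysing cAMP, cGMP or both. In HSCs the chemokine receptor Cxcr4 signals through the i class, and prostaglandin E2 receptors that raise cAMP are known to act on HSC number and homing.

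Values are log2 intensities after robust multi-array averaging (RMA), so a difference of 1 is a doubling of signal, and levels of different probe sets are not compared as amounts. Array medians were 5.26 and 5.28 for N-myc high, against 5.32 and 5.27 for N-myc low, and pairs of values below give mouse 1 before mouse 2. Mycn, the gene behind the sort, was at 10.48 and 10.39 in N-myc high, against 9.44 and 9.65 in N-myc low HSCs. The sort marker genes Kit (10.17 and 10.29 in N-myc high, against 10.18 and 10.53 in N-myc low) and Slamf1 (8.73 and 8.63 in N-myc high, against 8.99 and 8.01 in N-myc low) were bright in both fractions, while Ly6a was not analysed here. The arrays of mouse 1 carried the female-specific RNA Xist (11.38 in N-myc high, against 11.10 in N-myc low) beside the Y-linked gene Eif2s3y (8.53 in N-myc high, against 8.43 in N-myc low), and those of mouse 2 had Xist at 3.84 in N-myc high, against 3.70 in N-myc low, and Eif2s3y at 9.40, against 9.67. The labels do not say whether a sample was pooled, so p values measure the spread between these arrays and not a stated number of animals.

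The promoter windows of a few members are shown first, because the sort was made on N-myc, whose family binds the E-box CACGTG, and because cAMP acts on transcription through CREB at the cAMP response element (CRE) TGACGTCA. Windows are RefSeq's on GRCm38.p6 and run from 250 bases before a gene's start to 50 bases after it. Of the 52 members, 39 had 76 windows, and 13 had none in the table used. CACGTG occurred in 8 of the 76 windows (10.5%) and in 7.15% of all 32851 windows. CATGTG, another E-box searched on both strands, occurred in 13 member windows (17.1%) and in 14.2% of all windows. TGACGTCA occurred in 2 member windows (2.63%, both of Prkar1a) and in 1.79% of all windows. Those 2 windows overlap and share the same TGACGTCA, so it is 1 site in 1 of the 39 genes (2.03% of all genes with windows). The core TGACG, which overlaps TGACGTCA, occurred in 16 member windows (21.1%) and in 20.8% of all. A match of letters is a description and not a bound site.

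The single window of Gnai1 holds CACGTG, that of Pde1b shown here holds CATGTG on the other strand, and 1 of the 5 windows of Pde2a holds TGACG on the other strand. Prkaca and Prkar1a, a catalytic and a regulatory subunit gene of PKA, are set beside them, since the windows shown hold CACGTG with TGACG and TGACGTCA. Sequences read 5′ to 3′ on the strand of the gene, and capitals mark these motifs. Their positions are chr5:18360364-18360663 (minus strand) for Gnai1, chr15:103502784-103503083 (plus) for Pde1b, chr7:101450270-101450569 (plus) for Pde2a, chr8:83972728-83973027 (plus) for Prkaca and chr11:109650699-109650998 (plus) for Prkar1a.
Gnai1: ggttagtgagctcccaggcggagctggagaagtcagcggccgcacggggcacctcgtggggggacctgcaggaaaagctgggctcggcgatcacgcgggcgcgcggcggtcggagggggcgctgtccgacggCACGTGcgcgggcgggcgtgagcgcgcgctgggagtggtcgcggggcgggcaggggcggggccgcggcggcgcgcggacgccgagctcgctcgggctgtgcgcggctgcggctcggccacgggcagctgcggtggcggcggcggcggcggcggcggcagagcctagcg
Pde1b: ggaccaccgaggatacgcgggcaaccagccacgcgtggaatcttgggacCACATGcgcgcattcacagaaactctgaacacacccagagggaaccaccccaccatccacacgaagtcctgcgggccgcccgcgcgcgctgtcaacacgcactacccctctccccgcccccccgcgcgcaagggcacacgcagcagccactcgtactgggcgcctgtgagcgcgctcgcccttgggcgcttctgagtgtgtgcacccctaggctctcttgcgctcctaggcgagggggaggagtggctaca
Pde2a: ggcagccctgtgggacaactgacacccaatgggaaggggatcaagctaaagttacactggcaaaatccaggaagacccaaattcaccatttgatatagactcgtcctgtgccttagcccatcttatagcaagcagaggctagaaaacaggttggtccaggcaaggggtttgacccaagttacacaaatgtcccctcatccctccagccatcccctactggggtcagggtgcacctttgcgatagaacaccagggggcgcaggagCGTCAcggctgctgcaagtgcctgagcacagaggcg
Prkaca: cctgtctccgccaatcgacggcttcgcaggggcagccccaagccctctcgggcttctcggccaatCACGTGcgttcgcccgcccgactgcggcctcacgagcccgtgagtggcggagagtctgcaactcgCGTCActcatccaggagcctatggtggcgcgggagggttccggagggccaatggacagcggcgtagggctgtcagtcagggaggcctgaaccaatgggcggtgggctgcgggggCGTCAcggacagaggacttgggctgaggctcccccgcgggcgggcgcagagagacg
Prkar1a: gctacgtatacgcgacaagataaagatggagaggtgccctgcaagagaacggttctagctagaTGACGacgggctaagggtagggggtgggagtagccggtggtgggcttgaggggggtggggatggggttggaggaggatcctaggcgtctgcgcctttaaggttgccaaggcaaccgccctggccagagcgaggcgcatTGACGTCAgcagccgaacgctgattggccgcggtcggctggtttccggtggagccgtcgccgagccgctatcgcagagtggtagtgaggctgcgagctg

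The CACGTG of Gnai1 lies 118 bases before the start. The CATGTG of Pde1b lies 201 bases before the start, and the TGACG of Pde2a lies 14 bases after it. No other window of Pde1b or Pde2a held a searched motif. CACGTG also occurred in windows of Adcy1, Gna13, Gnai3, Prkar1a, Prkar1b and Prkar2b, whose differences lay between -0.37 and 0.20 on the log2 scale.

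Across all genes, the fit called none between the N-myc fractions. In limma, 0 of 18193 genes (0%) and 0 of the 52 members had a Benjamini-Hochberg adjusted p under 0.05, and the lowest was 0.671. Before adjustment, 1148 genes (6.31%) and 6 members (11.5%) had p under 0.05, namely Pde2a, Pde1b, Pde8b, Gnai1, Pde8a and Gna14. The N-myc high pair of arrays exceeded the N-myc low pair without overlap for 15.6% of all genes and for 10 members (19.2%), and lay below it for 20.8% of all genes and for 11 members (21.2%). Differences over 1 on the log2 scale were found for 592 genes (3.25%) and for 5 members (9.62%). The group was written with this contrast known, so nothing is read from these shares. The median difference of the members was -0.02, beside -0.03 over all genes. Without Pde2a, Pde1b and Gnai1, the other 49 members had a median of -0.02, and 7 lay above and 11 below without overlap.

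**Figure D1:**
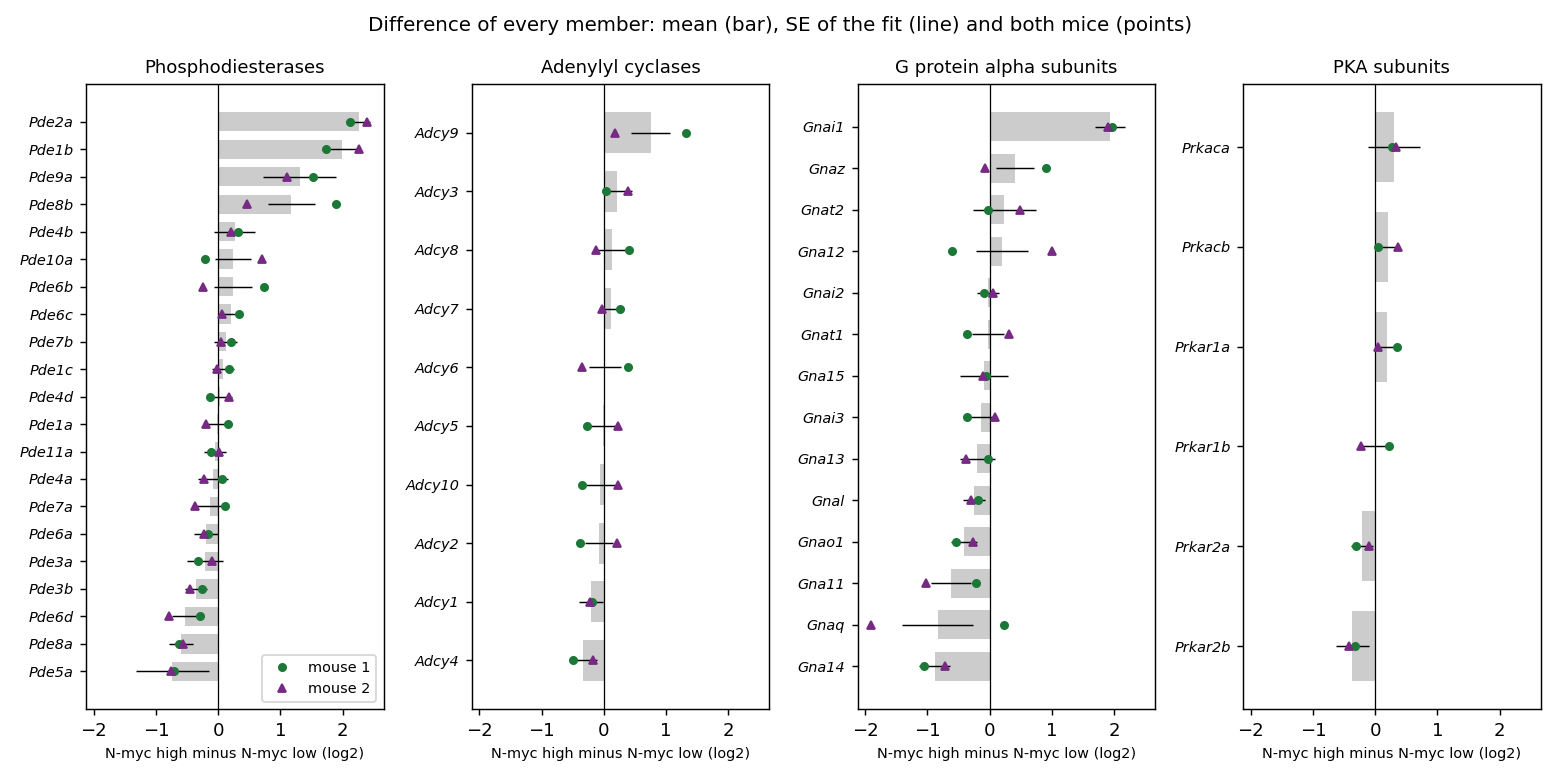
Difference of N-myc high from N-myc low HSCs for the members of each family, in log2 units, with the mean over both mice (grey bar), the SE of the fit over all genes (black line), mouse 1 (circle) and mouse 2 (triangle). Pde2a, Pde1b and Gnai1 stand at 2.26, 1.99 and 1.94, while most members lie within 1 of 0, and 29 of the 52 have the same sign in both mice.

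Among the phosphodiesterases, the largest differences between the fractions were those of Pde2a and Pde1b, which both act on cAMP and cGMP. Pde2a, which hydrolyses both cyclic nucleotides and is stimulated by cGMP, was at 8.91 and 9.06 in N-myc high HSCs, against 6.78 and 6.67 in N-myc low HSCs. The difference was 2.26 (SE 0.18), a 4.78-fold ratio of signal, and it ranked 14 from the top of 18193 genes. Both N-myc high arrays were bright and lay within 0.2 of each other, as did both N-myc low arrays, and the groups stood far apart.

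That value rested on 1 of the 3 probe sets of Pde2a, 1447707_s_at. The probe set 1452202_at read 6.72 and 6.23 in N-myc high, against 6.85 and 5.79 in N-myc low, a difference of 0.16 with overlapping groups. The dim probe set 1447708_x_at read 3.78 and 3.71 in N-myc high, against 3.51 and 3.76 in N-myc low, a difference of 0.11. On Affymetrix arrays the ending _s_at marks probes that match several transcripts and _x_at marks probes that may bind unrelated ones. Averaged over its probe sets, Pde2a differed by 0.84.

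Pde1b, which calcium and calmodulin switch on and which hydrolyses both cyclic nucleotides, had a single probe set. It was at 7.87 and 8.01 in N-myc high, against 6.14 and 5.75 in N-myc low HSCs, so that each N-myc high array stood above each N-myc low array by more than 1.5. The difference was 1.99 (SE 0.22), a 3.98-fold ratio, with 1.73 in mouse 1 and 2.26 in mouse 2, and it ranked 30 from the top. The other calcium-dependent members, Pde1a and Pde1c, differed by -0.02 and 0.08, and Pde1a was dim at a mean of 3.24.

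Pde9a, a cGMP-specific enzyme, read 6.18 and 4.80 in N-myc high, against 4.66 and 3.69 in N-myc low HSCs. The value of 1.31 (SE 0.59) was 1.52 in mouse 1 and 1.11 in mouse 2. It came with a difference between the mice of 1.17, so the array of N-myc high mouse 2 was close to that of N-myc low mouse 1. Pde8b, a cAMP-specific enzyme of high affinity, read 5.97 and 5.27 in N-myc high, against 4.07 and 4.80 in N-myc low, a difference of 1.18 (SE 0.38). It came mostly from mouse 1 (1.90, against 0.46 in mouse 2). The other probe set of Pde8b gave -0.41.

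At the lower end stood Pde5a, Pde8a, Pde6d and Pde3b. Pde5a, the cGMP-specific enzyme that sildenafil inhibits, read 5.31 and 6.47 in N-myc high, against 6.02 and 7.23 in N-myc low HSCs. The difference was -0.72 in mouse 1 and -0.76 in mouse 2, nearly the same, although the mice lay so far apart that the groups overlapped. Its other probe sets gave -0.54 and -0.16. Pde8a, the close relative of Pde8b, read 6.14 and 6.34 in N-myc high, against 6.77 and 6.91 in N-myc low, a difference of -0.60 (SE 0.19), and its other probe set gave -0.57. The probe sets used for the PDE8 genes had opposite signs in both mice, but the other probe set of Pde8b had the sign of Pde8a overall and in mouse 2 (-1.56).

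Pde6d encodes a carrier of prenylated proteins and no cyclic nucleotide hydrolase. It read 8.29 and 8.003 in N-myc high, against 8.58 and 8.80 in N-myc low HSCs, a difference of -0.54 (SE 0.21) without overlap. Pde3b, which acts on both nucleotides and which cGMP inhibits, read 7.47 and 7.44 in N-myc high, against 7.73 and 7.90 in N-myc low. Its difference was -0.36 (SE 0.18). The groups of these 2 genes lay apart by less than those of Pde2a, Pde1b or Gnai1.

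The brightest phosphodiesterase probe set belonged to Pde4b, a cAMP-specific enzyme of immune cells. It was at 8.94 and 9.46 in N-myc high, against 8.62 and 9.26 in N-myc low HSCs, so the value of 0.26 (SE 0.32) came with overlapping groups. The 6 probe sets of Pde4b lay between -0.33 and 0.61, with 3 above 0, and averaged 0.04. Pde4a and Pde4d, of the same class, differed by -0.09 and 0.02, and Pde7a and Pde7b by -0.13 and 0.12. The subunit genes of the photoreceptor enzyme, Pde6a, Pde6b and Pde6c, had mean levels between 2.54 and 4.51 and differences between -0.20 and 0.24. Pde3a, Pde10a and Pde11a, which act on both nucleotides, differed by -0.21, 0.24 and -0.05. By substrate, the 8 genes of both nucleotides had a median of 0.03, the 7 of cAMP 0.02 and the 5 of cGMP 0.20. Over all 21, 6 lay above and 4 below without overlap (28.6% and 19.0%), beside 15.6% and 20.8% of all genes.

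**Figure D2:**
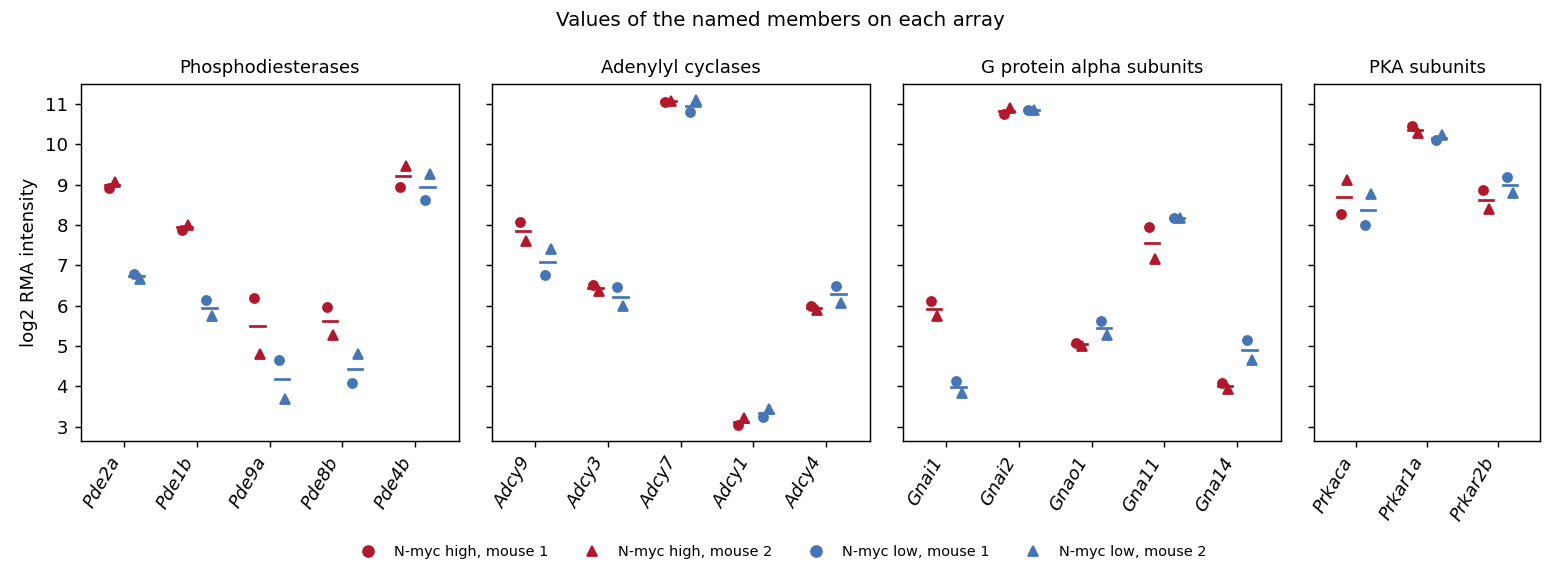
Log2 intensity of the named members on each array, by family, with N-myc high in red left of N-myc low in blue, circles for mouse 1, triangles for mouse 2 and a line at the group mean. The groups of Pde2a, Pde1b and Gnai1 stand apart by more than 1.5. Those of Pde4b, Adcy7 and Gnai2, the brightest of their families, meet, while those of Prkar1a, the brightest PKA subunit, only just part.

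Of the adenylyl cyclases, which make cAMP, none differed by more than 1. Adcy9, a widely expressed cyclase that forskolin hardly activates, had the largest difference, with 8.08 and 7.59 in N-myc high, against 6.76 and 7.41 in N-myc low HSCs. The difference of 0.75 (SE 0.32) was 1.32 in mouse 1 and 0.19 in mouse 2, and the other 3 probe sets of Adcy9 lay between -0.03 and 0.01. Adcy7, the brightest cyclase probe set and an enzyme known from blood cells, overlapped, at 11.05 and 11.07 in N-myc high, against 10.79 and 11.10 in N-myc low, a difference of 0.12 (SE 0.20).

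Adcy4 read 5.999 and 5.89 in N-myc high, against 6.49 and 6.06 in N-myc low HSCs, a difference of -0.33 (SE 0.23) in which the groups only just parted. Adcy3, of olfactory neurons and other tissues, read 6.50 and 6.37 in N-myc high, against 6.46 and 5.98 in N-myc low, and its 4 probe sets gave values between 0.18 and 0.83, all above 0. Adcy1, a neuronal cyclase, was dim at 3.04 and 3.21 in N-myc high, against 3.24 and 3.44 in N-myc low. The remaining cyclases differed little: Adcy2 by -0.08, Adcy5 by -0.01, Adcy6 by 0.02, Adcy8 by 0.13 and the soluble cyclase Adcy10 by -0.06, each with the mice on opposite sides of 0. Over the 10 genes, 1 lay above and 2 below without overlap, beside 15.6% and 20.8% of all genes, and the median was 0.00.

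Among G alpha subunits, Gnai1 stood apart while the arrays of its close relatives Gnai2 and Gnai3 overlapped on the probe sets used. Gnai1, an inhibitory alpha subunit best known from brain, read 6.11 and 5.73 in N-myc high, against 4.13 and 3.83 in N-myc low HSCs. The difference was 1.94 (SE 0.23), a 3.83-fold ratio, and was 1.97 in mouse 1 and 1.90 in mouse 2, rank 38 from the top. Both N-myc low arrays were dim, and the mean over the arrays was at the 36.0th percentile of all genes.

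The other probe sets of Gnai1 had the same sign and smaller values. 1434440_at read 4.69 and 4.75 in N-myc high, against 3.40 and 4.29 in N-myc low, a difference of 0.87 with no overlap. 1454959_s_at read 5.65 and 4.80 in N-myc high, against 4.77 and 4.49 in N-myc low, a difference of 0.59 in which N-myc high mouse 2 barely exceeded N-myc low mouse 1. Its mean was 4.93, so near to the 4.95 of the probe set used that the choice between them turned on 0.03. Averaged over its 3 probe sets, Gnai1 differed by 1.13.

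Gnai2, the inhibitory alpha subunit of leukocytes through which chemokine receptors signal, was the brightest alpha probe set, at 10.75 and 10.90 in N-myc high, against 10.85 and 10.85 in N-myc low HSCs. The difference was -0.02 (SE 0.18). The other probe set of Gnai2 read 10.43 and 10.57 in N-myc high, against 10.59 and 10.62 in N-myc low, a difference of -0.10 without overlap. Gnai3 read 9.62 and 9.68 in N-myc high, against 9.98 and 9.60 in N-myc low, a difference of -0.14 (SE 0.22). The other probe set of Gnai3 gave 0.17 with overlapping groups. Gnaz, an inhibitory alpha subunit of platelets and neurons that resists pertussis toxin, differed by 0.41 (SE 0.31), with 0.90 in mouse 1 and -0.08 in mouse 2. Its other probe set gave -0.43. Gnao1, a neuronal alpha subunit, read 5.07 and 5.00 in N-myc high, against 5.62 and 5.27 in N-myc low, a difference of -0.41 (SE 0.21). Its other probe sets gave 0.13 and -0.01, and averaged over all of them Gnao1 differed by -0.09. The photoreceptor subunits Gnat1 and Gnat2 differed by -0.02 and 0.23.

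All 4 members of the q class, which activate phospholipase C, had differences below 0 on the probe sets used, as did 9951 of all 18193 genes. Other probe sets of Gna11 and Gnaq lay above 0. Gna14 read 4.09 and 3.94 in N-myc high, against 5.15 and 4.65 in N-myc low HSCs, a difference of -0.88 (SE 0.24). Another probe set of Gna14 read 3.33 and 3.27 in N-myc high, against 4.81 and 4.33 in N-myc low, so that 2 of its 3 probe sets had all N-myc high arrays below all N-myc low arrays. The last gave -0.12. Every one of these N-myc high values was dim.

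Gna11 read 7.95 and 7.16 in N-myc high, against 8.18 and 8.17 in N-myc low HSCs, a difference of -0.62 (SE 0.32), whereas its other probe set gave 0.17. Gnaq, the founding member of the class, read 7.81 and 7.15 in N-myc high, against 7.58 and 9.06 in N-myc low. Its difference of -0.83 (SE 0.57) came from N-myc low mouse 2, with 0.24 in mouse 1, and 4 of its 7 probe sets were above 0. Gna15, the alpha subunit restricted to blood cells, was at 6.34 and 5.58 in N-myc high, against 6.40 and 5.70 in N-myc low, a difference of -0.09. In the 12 class, Gna12 differed by 0.20 and Gna13 by -0.19, and Gnal, an olfactory relative of Gnas, lay at 3.28 with -0.24. Over the 14 alpha subunits, 1 lay above and 4 below without overlap, beside 15.6% and 20.8% of all genes.

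On the probe sets used, PKA subunits were all in the brighter 50% of genes and differed by less than 0.4, while other probe sets of some differed by more. The regulatory subunit gene Prkar1a was the brightest, at 10.45 and 10.27 in N-myc high, against 10.10 and 10.23 in N-myc low HSCs, a difference of 0.20 (SE 0.19). Prkar2b read 8.86 and 8.39 in N-myc high, against 9.18 and 8.80 in N-myc low. Its difference of -0.37 (SE 0.26) was -0.32 in mouse 1 and -0.41 in mouse 2, but its other probe sets gave 0.01 and 0.00. The catalytic subunit gene Prkaca read 8.27 and 9.11 in N-myc high, against 7.99 and 8.76 in N-myc low. Its difference of 0.31 (SE 0.42) was 0.28 in mouse 1 and 0.34 in mouse 2, and its other probe set gave 0.47.

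Prkacb, the other catalytic subunit gene, had 3 probe sets, of which a pair shared a mean level of 8.70. In that pair the one used gave 0.21 and its partner 0.65, with 9.17 and 8.88 in N-myc high, against 8.27 and 8.47 in N-myc low HSCs, and in both the N-myc high arrays lay above the N-myc low arrays. The dim remaining one went the other way, at 3.53 and 3.55 in N-myc high, against 3.59 and 3.75 in N-myc low, a difference of -0.13. Prkar1b differed by 0.00 and Prkar2a by -0.21 on the probe sets used. The 5 probe sets of Prkar1b lay between -0.41 and 0.53, with 4 above 0. The 4 of Prkar2a lay between -0.54 and 0.19, with 1 above 0. Gnasas1 was dim at a mean of 2.701 and differed by 0.03. Gnas itself, which encodes the s class alpha subunit and is left out by the rule, was bright and overlapped, at 11.10 and 11.09 in N-myc high, against 11.15 and 11.05 in N-myc low.

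**Figure D3:**
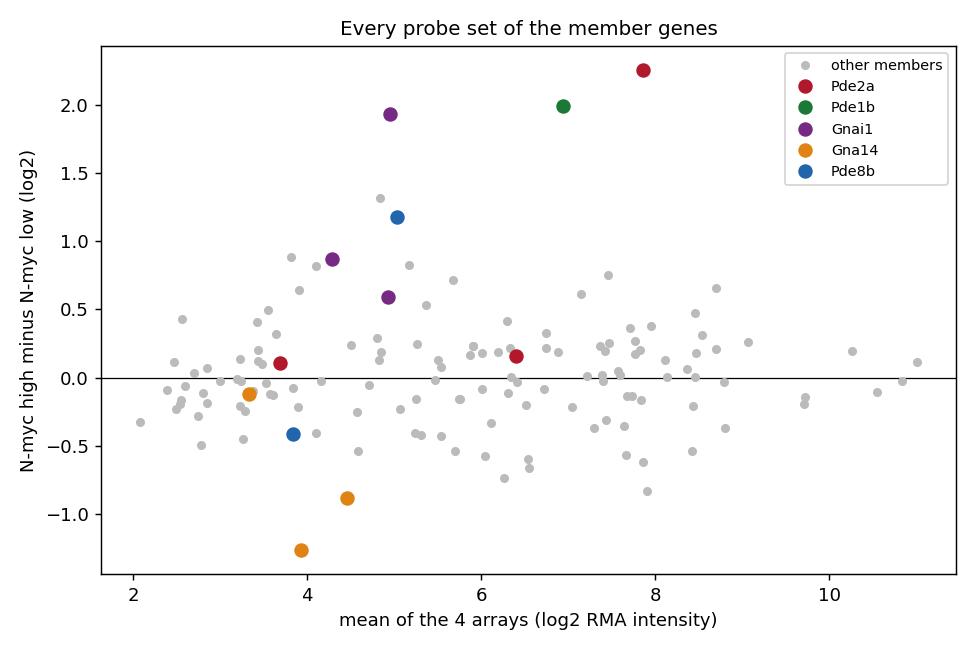
Difference of N-myc high from N-myc low HSCs (log2) against the mean of the 4 arrays (log2 intensity) for the 139 probe sets of the 52 member genes, each point 1 probe set. Pde2a has 1 probe set at 2.26 and the others at 0.16 and 0.11, while the 3 of Gnai1 lie at 1.94, 0.87 and 0.59.

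Probe sets of a gene often differed in sign. Of the 35 members with more than 1 probe set, 14 (40.0%) had all of them on the same side of 0, beside 41.5% of the 9010 such genes on the array. The 14 were Pde2a, Pde3a, Pde4d, Pde5a, Pde8a, Pde11a, Adcy1, Adcy3, Adcy7, Gnai1, Gnai2, Gna14, Gnal and Prkaca. With the mean of probe sets in place of the brightest, 5 members changed sign (Gna12, Gnai3, Gnaz, Pde1a and Pde7a), all of which had started within 0.42 of 0.

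Both mice gave the same sign for 29 members (55.8%), beside 53.0% of all genes. Over the 52 members, which share the 4 arrays, the differences of the mice had a Pearson r of 0.63, and of 0.29 over the 49 without Pde2a, Pde1b and Gnai1. Over all genes r was 0.11. The group was picked for genes that differed in these same arrays, so its gap from all genes is not read as agreement of the mice. The members whose mice lay farthest apart were Gnaq (0.24 in mouse 1 and -1.90 in mouse 2), Gna12 (-0.61 and 1.01), Pde8b (1.90 and 0.46) and Adcy9 (1.32 and 0.19).

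**Figure D4:**
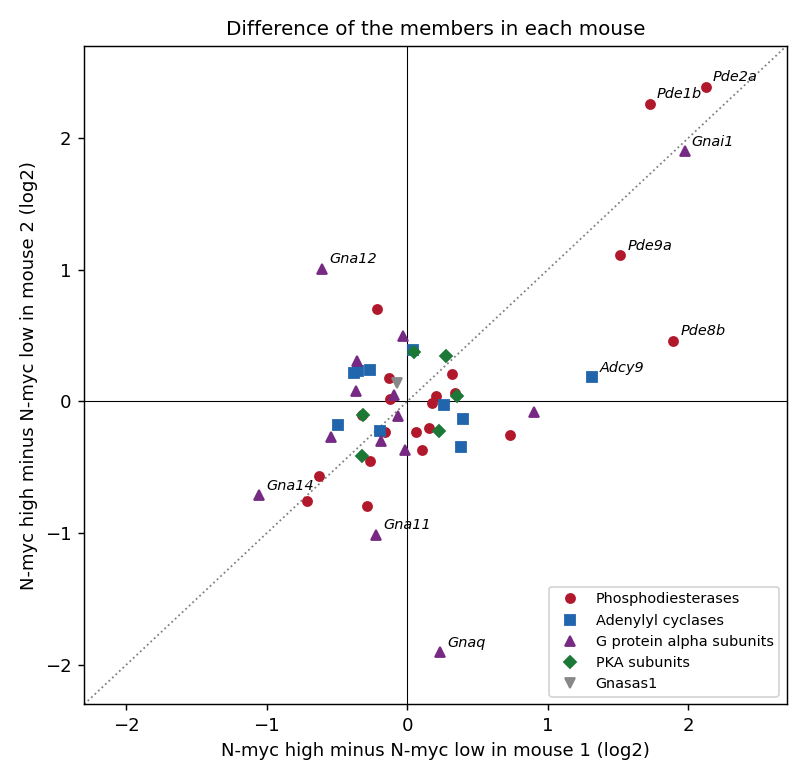
Difference of N-myc high from N-myc low HSCs in mouse 2 against that in mouse 1 (log2) for the 52 members, coloured by family, with the dotted line where both are equal. Pde2a, Pde1b and Gnai1 lie in the upper right corner, and Gnaq lies at 0.24 in mouse 1 and -1.90 in mouse 2.

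The comparison of mouse 1 with mouse 2, which the rule did not use, asked how far members vary between samples apart from N-myc level. In limma it called 1 gene of 18193 (0.0055%), Xist (adjusted p = 0.015), and 0 of the 52 members. That call was lost (0 genes) when any of the arrays was left out and with the N-myc fraction as a block. Before adjustment, 809 genes (4.45%) and 4 members had p under 0.05, Pde5a (-1.19 for mouse 1 minus mouse 2), Gnat2 (0.98), Prkaca (-0.81) and Gna15 (0.73), each at an adjusted p of 0.989 in limma. Both arrays of mouse 1 lay above both of mouse 2 for 14.6% of all genes and for 7 members, and below for 16.9% of all genes and for 8 members. The mouse difference was -0.02 for Pde2a, 0.13 for Pde1b and 0.34 for Gnai1. That fit leaves their difference between the fractions in its spread (SE 1.07, 0.95 and 0.92). It therefore says little on whether these genes vary between mice. The mouse difference of Pde8b, -0.01, averages gaps of opposite sign, with mouse 1 above mouse 2 in N-myc high and below it in N-myc low HSCs.

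Other genes of the pathway were taken from lists chosen with earlier results of these data known, and 0 of them passed the adjusted threshold in either direction. Their counts without overlap stand beside 15.6% above and 20.8% below over all genes, and nothing particular to a list is read from them. Of 14 measured genes for cGMP synthesis and cGMP kinases, 6 lay above and 1 below without overlap (all genes 15.6% and 20.8%), with a median of 0.04. Gucy1b1, the beta subunit of the nitric oxide receptor soluble guanylyl cyclase, read 4.22 and 4.15 in N-myc high, against 3.48 and 3.07 in N-myc low HSCs, a difference of 0.91 (SE 0.22). Gucy1b1 was dim, with a mean level at percentile 20.1 of all genes. Its partner Gucy1a1 read 8.61 and 8.52 in N-myc high, against 8.36 and 8.24 in N-myc low.

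The cGMP-dependent kinase genes had the same sign. Prkg2 read 4.51 and 4.95 in N-myc high, against 4.14 and 4.02 in N-myc low HSCs, a difference of 0.65 (SE 0.23). Prkg2 was dim too, with a mean level at percentile 28.9 of all genes. Prkg1 read 8.77 and 8.53 in N-myc high, against 8.38 and 7.81 in N-myc low, a difference of 0.55 (SE 0.27). The natriuretic peptide receptor gene Npr2, itself a guanylyl cyclase, read 7.13 and 6.95 in N-myc high, against 6.33 and 6.47 in N-myc low. Gucy2c (0.46) was the sixth gene above, and Gucy2e (-0.31) the one below. The nitric oxide synthase genes Nos1, Nos2 and Nos3, which feed this branch, lay between -0.14 and -0.05.

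Of 24 RGS proteins and other regulators of alpha subunits, 4 lay above and 4 below without overlap, close to the shares of all genes (15.6% and 20.8%). Gpsm2, which binds inhibitory alpha subunits in their GDP form, read 7.80 and 6.86 in N-myc high, against 6.25 and 5.81 in N-myc low HSCs, a difference of 1.30 (SE 0.39). Rgs3 differed by 0.77 and Rgs16 by -0.50, both without overlap. All 6 measured receptor kinases and arrestins, which switch receptors off, had differences below 0, as did 9951 of all 18193 genes, and the median was -0.33. Without overlap, 2 of them lay below (20.8% of all genes), Arrb1 (-0.45, SE 0.19) and Arrb2 (-0.30).

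Of 16 A-kinase anchors and PKA inhibitors, 4 lay above and 3 below without overlap, beside 15.6% and 20.8% of all genes. Pkia, a peptide inhibitor of the catalytic subunits, read 6.99 and 5.55 in N-myc high, against 4.50 and 4.89 in N-myc low HSCs, a difference of 1.57 (SE 0.53) that was 2.49 in mouse 1 and 0.65 in mouse 2. Akap10 differed by 0.62 (SE 0.19). Akap12 stood at -1.40 through N-myc low mouse 2 alone, which read 6.53 where the other arrays read 3.66 to 3.95.

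Of 14 other cyclic nucleotide effectors, 3 lay above and 3 below without overlap, beside 15.6% and 20.8% of all genes. Cngb1, a channel subunit of photoreceptors and olfactory neurons, read 6.05 and 6.59 in N-myc high, against 7.07 and 7.43 in N-myc low HSCs (-0.93, SE 0.27). Abcc4, which exports cyclic nucleotides, differed by -0.64 with overlapping groups. Among CREB factors and coactivators, 1 of 7 lay above and 2 below, with Creb1 at 0.18 and Ep300 at -0.46.

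Of 13 CREB target genes besides the members, 11 had differences above 0, as did 8224 of all 18193 genes, and the median was 0.30. Without overlap, 3 lay above (15.6% of all genes), Per1, Ppargc1a and Junb. The clock gene Per1 read 7.06 and 7.70 in N-myc high, against 6.30 and 6.15 in N-myc low HSCs, a difference of 1.16 (SE 0.28). Nr4a1, an orphan nuclear receptor induced by cAMP, read 6.85 and 8.55 in N-myc high, against 5.01 and 7.09 in N-myc low, so its difference of 1.65 came with a gap between the mice that made the groups overlap. Egr1 read 11.24 and 12.07 in N-myc high, against 10.12 and 11.47 in N-myc low, and in Fos, Fosb, Egr1 and Sik1 too the arrays of mouse 2 were above those of mouse 1 within each fraction. Several of these are immediate-early genes that respond to many signals besides cAMP.

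**Figure D5:**
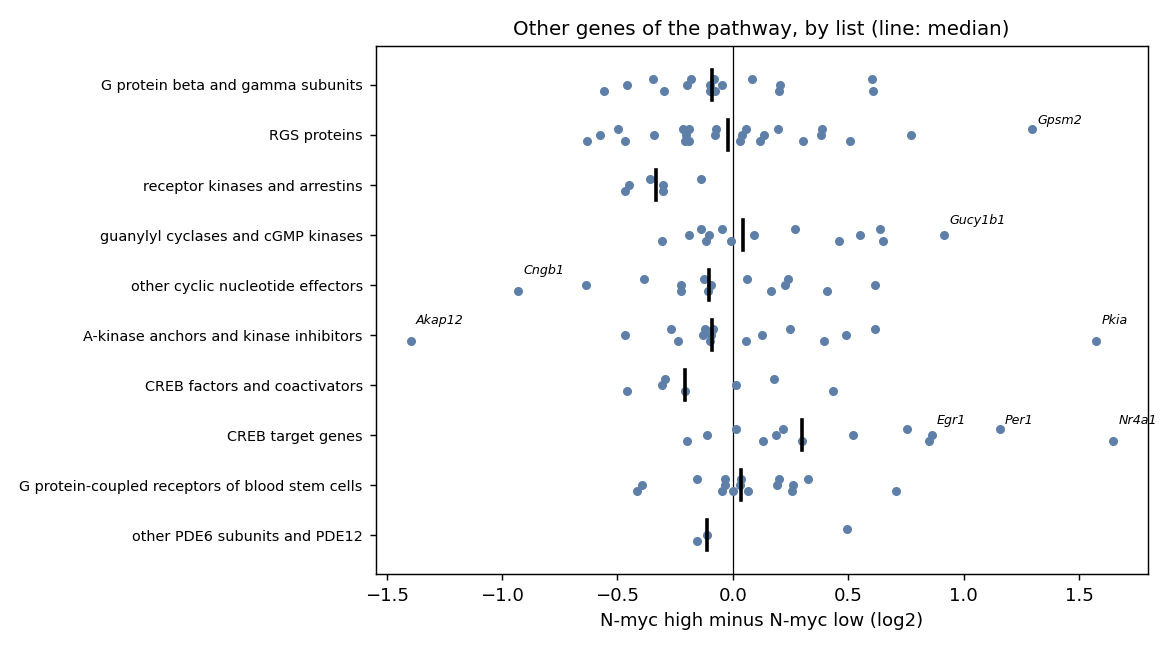
Difference of N-myc high from N-myc low HSCs (log2) for other genes of cyclic nucleotide and G protein signalling, each point 1 gene and the line the list's median. The 6 receptor kinases and arrestins lie below 0, and 11 of the 13 CREB target genes lie above 0.

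No marker gene of the sorted or of other cells passed the adjusted threshold in limma (0 in every list), and their levels are given as values. The 8 macrophage markers averaged 6.06 and 5.87 in N-myc high, against 5.51 and 5.00 in N-myc low HSCs, with a median difference of 0.26. That average was carried by C1qb (2.66; 8.24 and 8.48 in N-myc high, against 5.76 and 5.64 in N-myc low) and Mrc1 (2.26), while the other 6 lay between -0.14 and 0.32 and Adgre1 was dim on all arrays (2.96 to 3.68). The 6 measured HSC markers averaged 9.28 and 9.58 in N-myc high, against 8.69 and 8.62 in N-myc low. Their median difference was 0.92, with 4 above without overlap (15.6% of all genes) and 2, Kit and Slamf1, overlapping. The 6 granulocyte and monocyte markers averaged 10.27 and 10.03 in N-myc high, against 10.53 and 10.66 in N-myc low, and all 6 lay below without overlap (20.8% of all genes). The 4 erythroid markers averaged 6.43 and 6.09 in N-myc high, against 6.95 and 6.72 in N-myc low. Their median was -0.53, and 3 lay below without overlap (20.8% of all genes). Of 6 megakaryocyte markers, 4 lay below (20.8% of all genes) and 2 above (15.6%) without overlap. These markers ranged from Gp1bb at -0.9967 to Vwf at 1.88, with a median of -0.34. The B cell, T and NK cell and endothelial lists had medians of -0.21, 0.09 and 0.16. The 6 neuron and photoreceptor markers were dim, averaging 3.78 and 3.71 in N-myc high, against 3.84 and 3.71 in N-myc low. These markers' part in the values of Pde2a, Pde1b, Gnai1 and the other members was not tested. In RNA from a sorted population, fewer cells of a type and less RNA per cell cannot be told apart.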

How the data were processed

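The authors' deposited values are log2 intensities per probe set on an Affymetrix mouse array. The submitters' processing notes name RMA, affy and limma without versions, with the chip definition and build not given in the sources used here. RNA was amplified with NuGEN's Ovation system before hybridisation, per the labels' protocols. Precision is limited by having 2 arrays a group. Of 45101 probe sets, 34945 named 1 gene, 932 named several, 9160 were unnamed here and 64 were controls. Platform symbols were checked by Entrez number against RefSeq (GRCm38.p6), and 0 changed. Each of the 18193 genes was represented by its brightest probe set on average across arrays, and dim genes were kept.

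Groups were compared over all genes in R 4.3.3 with limma 3.58.1 (lmFit, eBayes), with Benjamini-Hochberg adjustment at 0.05, and the code was tested on simulated data. SEs are those of the fit without the mouse as a block, so gaps between the mice widen them. Folds are 2 to the power of the log2 difference. Alternatives were the mean of probe sets, every probe set, the brighter 50% of genes, an intensity trend, median centring, the mouse as a block and leaving out each array. The mouse number pairs arrays by label, and deviations of same-numbered arrays correlated at r = 0.0492.

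The members and lists were chosen with earlier results of these data known. Array values are given for Pde2a, Pde1b and Gnai1, and in each family for the brightest member and for the 4 (PKA: 2) with the largest difference of 1 sign in both mice. From each pathway list up to 2 such genes are named. Pde5a, Pde8a, Pde6d, Pde3b, Gnaq, Gnai3, Gna15, Prkacb and pathway genes beyond these, and the marker genes printed, were chosen after their values were seen.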

Additional observations from a re-analysis of the deposited data

How the results depend on the processing

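Under every alternative that kept all arrays, 0 genes and 0 members passed the adjusted threshold for N-myc high minus N-myc low. At an unadjusted p under 0.05 in limma, these had from 606 of 9097 genes (brighter 50% of genes only) to 2210 of 34945 probe sets (every probe set). Those settings thus tested fewer and more features. With the mouse number as a replicate block, 0 genes and 0 members passed. In that limma fit 7 members had an unadjusted p under 0.05, beside 6 without the block. In this balanced design the block cannot change a difference, so the members' median difference of -0.0184 was the same by construction. That median was 0.0019 over the mean of probe sets, 0.002 over every probe set, 0.002 in the brighter 50% of genes and -0.0695 with arrays centred on their medians, and it ranged from -0.071 to 0.0271 when 1 array was left out (-0.071 without N-myc low mouse 2, 0.0271 without N-myc high mouse 1). Its sign was thus not stable. With 1 array left out, Pde2a lay between 2.18 and 2.33, Pde1b between 1.80 and 2.19 and Gnai1 between 1.75 and 2.12. In these fits each gene kept the probe set chosen over all 4 arrays, so the ranges do not cover a change of probe set. For Gnai1 that choice was close (means of 4.95 and 4.93), and the probe set not chosen, 1454959_s_at, gave 0.59 over all arrays. Of the 52 members, 7 to 12 changed sign with 1 array left out. Centring changed the sign of 4. Over the mean of probe sets Pde2a was 0.84 and Gnai1 1.13. Of 30 further probe sets of the 18 genes named by rule, 11 had the opposite sign, over 7 genes. In the comparison of mouse 1 with mouse 2, the single call, Xist, was lost with the N-myc fraction as a block (0 genes, the same fit as the replicate block) and when any array was left out (0 to 0 genes), where the lone array is assumed to vary like the other group; 0 members passed in any of these fits. No background signal per probe set was at hand, so how far dim values stand above it was not tested.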

Other observations

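Receptors and the beta and gamma subunits that act with the alpha subunits were among the lists but stand apart from the enzymes above. Of 16 measured G protein-coupled receptor genes known from blood stem cells, 0 lay above and 1 below without overlap (all genes 15.6% and 20.8%), P2ry14, a receptor for UDP-glucose, with 7.03 and 7.25 in N-myc high, against 7.27 and 7.84 in N-myc low HSCs. The chemokine receptor gene Cxcr4 was bright, at 11.16 and 11.23 in N-myc high, against 10.61 and 11.26 in N-myc low. Adgrg1, an adhesion receptor of HSCs, overlapped, at 11.26 and 11.43 in N-myc high, against 11.36 and 11.27 in N-myc low. The prostaglandin E2 receptor genes Ptger4 and Ptger3 differed by 0.20 and -0.16. The thrombin receptor gene F2r read 10.69 and 8.96 in N-myc high, against 9.34 and 8.90 in N-myc low, a value carried by N-myc high mouse 1.

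Of 16 measured beta and gamma subunits, 2 lay above and 1 below without overlap, beside 15.6% and 20.8% of all genes, with a median of -0.09. Gng2, a gamma subunit of blood cells and other tissues, read 9.13 and 9.16 in N-myc high, against 8.38 and 8.70 in N-myc low HSCs, a difference of 0.60 (SE 0.20). Gnb1, the brightest beta subunit probe set, overlapped, at 10.75 and 10.63 in N-myc high, against 10.94 and 10.63 in N-myc low. Gnb5, which pairs with RGS proteins of neurons, differed by 0.61 with overlapping groups. The photoreceptor gene Pde6h read 7.02 and 6.36 in N-myc high, against 6.63 and 5.77 in N-myc low, while Pde6g and Pde12 differed by less than 0.2.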
